A study of Mus musculus with 2 samples.

Results

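The 10 genes described here belong to the bone morphogenetic protein (BMP) system and were measured by 12 probes on 1-colour Agilent expression arrays of mouse samples labelled as primary keratinocytes, the cells that form the epidermis. They are the ligand genes Bmp2, Bmp4, Bmp5, Bmp6 and Bmp7, the genes of the secreted antagonists Sostdc1 and Grem1, and the target genes Id1, Id2 and Id3. A probe was taken when it was not a control and its RefSeq accession belonged to one of these symbols. All 10 genes had a probe, out of 20144 genes that could be named on the array.

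BMPs are secreted dimers of the TGF-beta superfamily. They bring together receptor kinases at the cell surface, which phosphorylate Smad1, Smad5 and Smad9; these join Smad4 in the nucleus, where the Id genes are among the quickest genes to be switched on. Id proteins lack a DNA-binding region and hold E proteins, which bind E-box sequences, away from DNA, while antagonists such as Sostdc1 and Grem1 bind the ligands outside the cell. In skin, BMP signals shape hair follicle spacing and cycling, and they can commit mesenchymal precursors to the fat lineage.

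The series compared cells labelled Rac3-KO, named as the control, with cells labelled Rac1/Rac3-DKO. Loss of Rac3 is therefore shared by both groups, and loss of Rac1 is what the labels set between them. Rac1 and Rac3 are small GTPases that act on the actin cytoskeleton, and the series title asks how Rac in keratinocytes bears on fat cells in the dermis. The labels call the cells of both groups P3 primary keratinocytes without spelling out P3, and the strain, the age and the way in which Rac1 was removed are not given in the sources used here. With 1 array per genotype, nothing could be checked against replicates or tested. Values are processed spot signals, and a level is the log2 signal minus the 75th percentile of its array. That percentile was 705 on the array of Rac3-KO cells, called the control array below, and 354 on the DKO-labelled array. The signal was well above background, a call of the scanner software, for 56.9% and 52.9% of 55678 probes, and it was saturated at 0 spots. Precision is limited by the number of arrays. The error given with a difference is the scanner software's own signal error on the log2 scale. It holds no variation between cultures or animals. Its median over measured genes was 0.20, and it was nearly the same at most bright probes, so it is not a spread measured for each gene.

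The Rac1 and Rac3 probes did not bear out the genotype labels, and they cannot refute them either. The brighter Rac1 probe had a signal of 19847 on the control array and 12140 on the DKO-labelled array, a log2 difference of 0.28 ± 0.20 after scaling, and the other Rac1 probe differed by -0.12 ± 0.20. Rac3 gave 99.8 and 59.1, well above background on either array. Where these probes lie relative to the deleted parts is not known here. Both arrays also held RNA of cells other than keratinocytes, as given next, and the probes read all cells together. They may therefore check nothing. The second array is called DKO-labelled throughout.

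The cell type label was borne out in part. Keratins of basal keratinocytes were bright on both arrays, with Krt5 at 219046 on the control array and 47847 on the DKO-labelled array. Defining transcripts of other cells were bright too, which goes against keratinocytes alone: Hba-a1, a globin of red cells, gave 435050 and 361120, Col1a2, a fibroblast collagen, 393716 and 357516, and Tnnc2, a skeletal muscle troponin, 97854 and 259874.

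In the DKO-labelled cells Bmp2 and Sostdc1 were lower by at least 2-fold, Grem1 was higher by at least 2-fold, and Bmp5 was detected on the control array alone. The other 6 members, Bmp4, Bmp6, Bmp7, Id1, Id2 and Id3, were less than 2-fold apart. Of 9 members well above background on both arrays, 2 were thus at least 2-fold lower, where 937 of 14145 genes (6.62%) were, and 1 was at least 2-fold higher, where 1091 genes (7.71%) were. The members' median log2 difference was -0.25, or -0.29 over all 10 with Bmp5 at its bound, against -0.0077 over all measured genes. Differences below 0 were found for 5 of the 9 members and for 50.5% of all genes. With so few genes these shares describe the set and single nothing out.

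All directions hold relative to the arrays' 75th percentiles. Added spike-in RNAs, by contrast, were brighter on the DKO-labelled array, and scaling to them shifts every difference by -2.06. On that scale Grem1, Bmp4, Bmp6 and Id2, which lie above 0 here, fall below 0, and the median of all genes is -2.07. No other scaling that was tried turned the sign of a member.

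**Figure D1:**
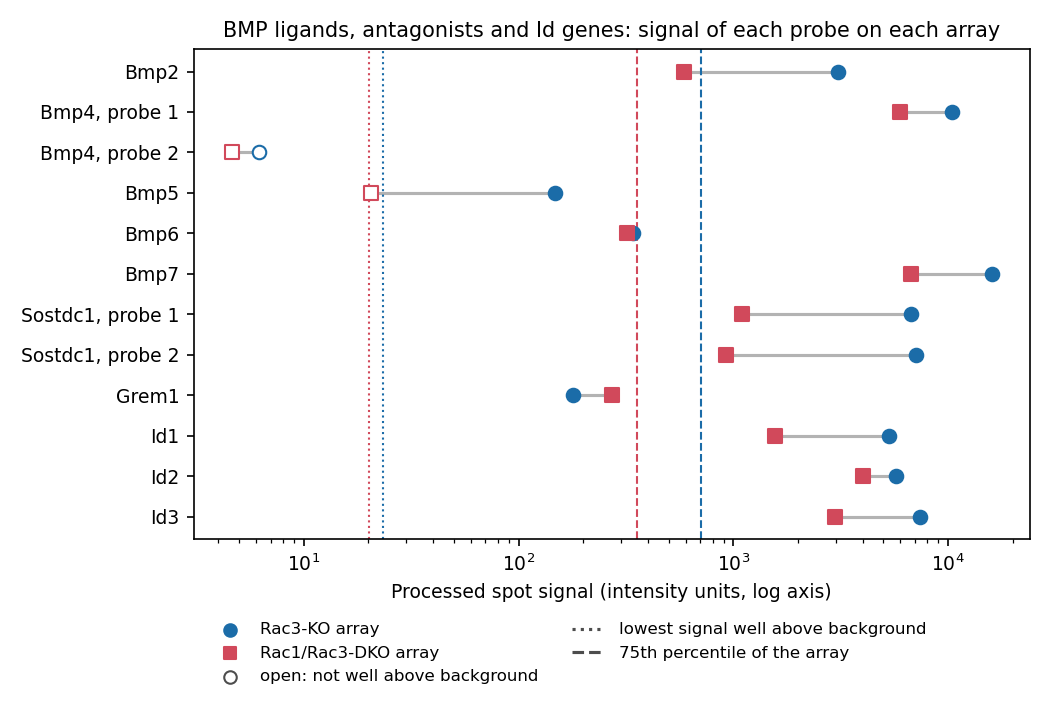
Processed signal of each of the 12 member probes (log axis) on the control array, Rac3-KO (circles) and the DKO-labelled array (squares), 1 spot per probe and array. Before scaling, the signal was higher on the control array for every member probe except Grem1; dashed lines at 705 and 354 mark the 75th percentiles, dotted lines the lowest signal well above background, and open symbols are spots that were not well above background.

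Bmp2, a ligand made by hair placodes and differentiating epidermis, had a signal of 3083 in control and 591 in DKO-labelled cells. Relative to the 75th percentiles its level went from 2.13 to 0.74, a log2 difference of -1.39 ± 0.20, or 2.62-fold lower. Only 439 of 14145 measured genes (3.10%) had a difference as low or lower. The value ranged between -1.49 and -1.33 under the alternatives tried, apart from spike-in scaling at -3.45.

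Bmp5, a ligand of the same subgroup as Bmp6 and Bmp7, was the one member near the detection limit. Its spot read 225 over a local background of 28 on the control array, and 76.5 over 27 on the DKO-labelled array, where the 308 negative control spots had a median of 48.5 and a 95th percentile of 57. After the software's background handling the signals were 148 and 20.6. The second was not well above background, at 1.03 times the lowest signal that was. On the processed signals this puts Bmp5 in DKO-labelled cells at least 3.61-fold lower. The bound is the ratio to its own dim signal, and it does not hold under another treatment of background, as given below. Of 15240 genes detected on at least 1 array, 188 (1.23%) were likewise seen on the control array alone and by a bound of at least 2-fold. The size rested on how background was treated: normexp correction with an offset of 50 put the log2 difference at -0.56 rather than -1.85.

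The 250 bases before the annotated start of Bmp5 (RefSeq, GRCm38.p6, chr9:75775115-75775364, plus strand) are printed because this ligand was detected on the control array alone; its window was AT-rich, with 42.8% G and C against a median of 52.4% over 32851 promoter windows of the same length.
Bmp5: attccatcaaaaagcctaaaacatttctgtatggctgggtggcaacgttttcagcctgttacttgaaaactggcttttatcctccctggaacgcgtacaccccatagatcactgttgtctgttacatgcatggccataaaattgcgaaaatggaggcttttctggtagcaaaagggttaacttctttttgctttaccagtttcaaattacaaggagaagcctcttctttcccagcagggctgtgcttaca

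Bmp4, Bmp6 and Bmp7 were less than 2-fold apart. Bmp7, made by epidermis and by dermal cells, had signals of 15965 and 6743 and levels of 4.50 and 4.25, a difference of -0.25 ± 0.20. Normexp correction moved it to -0.51. Bmp4, a ligand of dermal mesenchyme that also drives commitment to fat, had signals of 10427 and 5939 at its brighter probe, with levels of 3.89 and 4.07 and a difference of 0.18 ± 0.20, smaller than its signal error. The other Bmp4 probe stayed at 6.18 and 4.62, not well above background on either array, and gives no value. Bmp6, a ligand of suprabasal epidermis and of endothelium, kept nearly the same signal, 342 and 318, while the 75th percentile did not, so that its levels were -1.04 and -0.16. The difference was 0.89 ± 0.21, or 1.85-fold higher, and -1.17 on the spike-in scale. The ligands thus differed among themselves: Bmp2 and Bmp5 were lower, and Bmp6 lay 2.28 above Bmp2 in log2 difference, a gap that scaling between the arrays by a constant cannot alter.

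**Figure D2:**
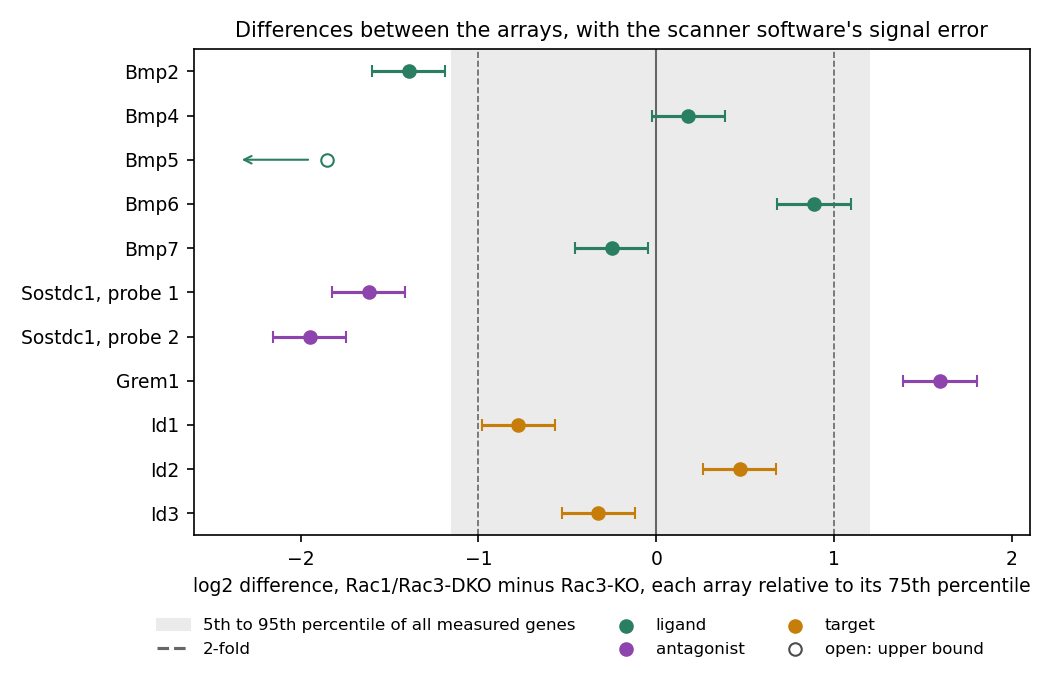
Log2 difference of each detected member probe, DKO-labelled minus Rac3-KO, with the scanner software's signal error as bars; the grey band runs from the 5th to the 95th percentile of all measured genes (-1.15 to 1.20) and dashed lines mark 2-fold. Bmp2, both Sostdc1 probes and the Bmp5 bound (open, arrow towards lower values) lie below the band and Grem1, at 1.60, above it; on the spike-in scale all points move down by 2.06.

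Both secreted antagonists were more than 2-fold apart, in opposite directions on the 75th percentile scale. Sostdc1, an antagonist of BMPs and of Wnt signalling made by epithelial cells around the hair placode, was read by a pair of probes. The first had signals of 6699 and 1098 and a difference of -1.62 ± 0.20 (3.07-fold lower), and the second 7114 and 926 and a difference of -1.95 ± 0.20 (3.86-fold lower). The probes lay 0.33 apart in log2 difference, an SD of 0.23, where 3578 genes with several probes had a median SD of 0.19 and a root mean square SD of 0.38. Only 2.12% of measured genes were as low as the first. Normexp correction gave -1.97 for the gene.

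Grem1, an antagonist of Bmp2, Bmp4 and Bmp7 made by mesenchymal cells, was the single member with a brighter spot on the DKO-labelled array, 272 against 179. Its level went from -1.98 to -0.38, a difference of 1.60 ± 0.21, or 3.02-fold higher, and 321 of 14145 genes (2.27%) had a difference as high or higher. Normexp correction lowered it to 1.29, and spike-in scaling turned it to -0.46.

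The upstream window of Grem1 (GRCm38.p6, chr2:113758649-113758898, minus strand) is shown because Grem1 had the highest difference of the members. Capitals mark GGCGCC, the GC-rich core of the element bound by BMP Smads, which begins 78 bases before the start; the letters occur in 9.59% of the 32851 windows.
Grem1: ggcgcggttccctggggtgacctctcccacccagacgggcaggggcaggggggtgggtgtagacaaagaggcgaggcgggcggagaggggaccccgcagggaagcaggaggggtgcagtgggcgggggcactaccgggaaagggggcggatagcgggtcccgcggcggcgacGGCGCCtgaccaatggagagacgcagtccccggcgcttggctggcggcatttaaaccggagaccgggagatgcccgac

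None of the Id genes, the targets that report BMP Smad activity, was 2-fold apart. Id1 had signals of 5306 and 1558 and levels of 2.91 and 2.14, a difference of -0.78 ± 0.20 (1.71-fold lower); 10.8% of measured genes were as low. Id3 had signals of 7407 and 2970 and a difference of -0.33 ± 0.20 (1.25-fold lower), and normexp correction moved it to -0.52. Id2 went the other way: its signals of 5742 and 3996 gave levels of 3.03 and 3.50 and a difference of 0.47 ± 0.20 (1.38-fold higher), which normexp correction reduced to 0.19 and spike-in scaling turned to -1.59. The gap between Id1 and Id2 was 1.25 in log2 difference. Id4, the remaining gene of the family, differed by -0.50 ± 0.21.

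With a threshold of 1.5-fold in place of 2-fold, Id1 joined Bmp2 and Sostdc1, so that 3 of 9 members were lower, where 16.5% of all genes were. Bmp6 joined Grem1, so that 2 were higher, where 18.2% of all genes were.

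The windows upstream of Id2 (GRCm38.p6, chr12:25096093-25096342, minus strand) and Id3 (GRCm38.p6, chr4:136143572-136143821, plus strand) are set side by side because these targets differed in opposite directions on the 75th percentile scale; capitals again mark GGCGCC.
Id2: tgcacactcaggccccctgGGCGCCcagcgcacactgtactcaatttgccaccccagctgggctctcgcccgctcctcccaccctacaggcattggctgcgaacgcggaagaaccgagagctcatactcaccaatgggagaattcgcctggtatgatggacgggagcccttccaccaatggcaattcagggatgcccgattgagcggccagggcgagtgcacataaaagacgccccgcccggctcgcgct
Id3: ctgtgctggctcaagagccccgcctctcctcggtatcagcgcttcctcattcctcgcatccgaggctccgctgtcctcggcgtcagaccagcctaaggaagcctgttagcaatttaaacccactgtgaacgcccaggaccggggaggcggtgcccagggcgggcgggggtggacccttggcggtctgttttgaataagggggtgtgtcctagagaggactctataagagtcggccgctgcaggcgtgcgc
Both windows held 62.8% G and C. Id2 had GGCGCC once, 231 bases before the start, and Id3 did not have it in this window. CANNTG, the E-box letters that E proteins bind, occurred once in Id2, was not in the Id3 window, and was found in 66.2% of all windows. GTCT, the short Smad box, occurred in the windows of Id2 and Id3, as in 82.9% of all windows. Of the 6 members with a RefSeq window in the table (Bmp4, Bmp5, Bmp6, Grem1, Id2 and Id3), Grem1 and Id2 held GGCGCC, Bmp4, Bmp6 and Id2 held CANNTG, and all 6 held GTCT. Both strands were searched and matches of different motifs did not overlap. A match is a run of letters, not a measured site.

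The rest of the pathway went in both directions too. Of 63 further BMP pathway genes on the array, 54 were well above background on both arrays; at least 2-fold differences were found downward for 2 and upward for 5 of these, or 3.70% and 9.26%, against 6.62% and 7.71% of all genes, with a median of 0.05. Counts on the spike-in scale were 50 lower and 0 higher. Of the other ligands, 4 were measured and none was 2-fold apart, from Gdf5 at -0.39 ± 0.26 to Bmp3 at 0.60 ± 0.20. Gdf6, detected on the DKO-labelled array alone with signals of 8.45 and 37.6, was at least 3.19-fold higher there.

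Among secreted antagonists other than Sostdc1 and Grem1, 9 of 12 measured genes lay above 0, with a median of 0.36, where 6995 of all 14145 genes did. At least 2-fold higher was 1 of the 12 (8.33%), against 7.71% of all genes. On the spike-in scale the 9 genes above 0 fall below it. Fstl1, a follistatin-like protein of mesenchymal cells, had signals of 144648 and 151450 and was 2.08-fold higher (1.06 ± 0.20), while Fstl3 differed by -0.85 ± 0.20. Fstl1 came under 2-fold with median scaling (0.96), loess (0.92) and quantile normalization (0.81). Noggin (Nog), the best known BMP antagonist, had signals of 107 and 104, a difference of 0.96 ± 0.23. Chrdl2, a chordin-like antagonist, was detected on the DKO-labelled array alone and was at least 2.77-fold higher.

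Receptors and Smads carry the signal into the cell. Of 11 receptor and co-receptor genes, 5 lay below 0 and 6 above, from -1.03 to 1.63 (median 0.04), so they differed among themselves. The type I receptor genes Bmpr1a and Acvr1 differed by 0.04 ± 0.20 and 0.13 ± 0.20, and Bmpr2 by -0.01 ± 0.20. Another type I receptor gene, Bmpr1b, differed by -0.96 ± 0.22 at its brighter probe; its other probe, with signals of 106 and 18.3, passed the background call on the control array alone and was at least 2.66-fold lower on the other. Acvrl1, the type I receptor of endothelial cells, differed by 0.83 ± 0.20 (1.78-fold higher). Both genes at least 2-fold apart were co-receptors of the repulsive guidance family, of which Rgma differed by 0.61 ± 0.20. Rgmb was 2.04-fold lower (-1.03 ± 0.23, but -0.42 with normexp) and Hjv, known from skeletal muscle and liver, 3.09-fold higher (1.63 ± 0.21, but 1.21 with normexp). The skeletal muscle list beside it had a median of 2.51, and its part in the Hjv difference was not tested. The 4 Smads had a median of -0.0084 and ranged from -0.38 ± 0.20 for Smad5 to 0.22 ± 0.32 for Smad9.

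Inside the cell, the ubiquitin ligase gene Smurf1, whose product removes BMP Smads, was 2.17-fold higher (1.12 ± 0.20; 0.87 with normexp), and the inhibitory Smad7, itself a feedback target, was the lowest of 7 inhibitors at -0.65 ± 0.20. Of 8 further target genes, 5 lay below 0, with a median of -0.45, where 50.5% of all genes lay below 0. On the 75th percentile scale Atoh8, a transcription factor, had signals of 178 and 254 and was 2.83-fold higher, and the homeobox genes went in both directions. Dlx3 had signals of 3827 and 3408 and differed by 0.83 ± 0.20 (1.77-fold higher), while Msx1, Msx2 and Dlx5 differed by -0.57 ± 0.21, -0.59 ± 0.21 and -0.98 ± 0.26. Proteases that process BMPs or their antagonists were split. Pcsk5, a proprotein convertase, was 2.08-fold higher (1.06 ± 0.20), but its other probe was not well above background, the mean over both gave 0.76, median scaling 0.96 and normexp 0.99. Tll1, a relative of Bmp1 that cleaves chordin, was 3.05-fold lower at its brighter probe (-1.61 ± 0.22) while a dimmer probe differed by 0.22 ± 0.33, so that the mean over probes was -0.70; normexp gave -0.99. The E protein genes, partners of the Id proteins, all lay below 0, from Tcf3 at -0.65 ± 0.20 to Tcf4 at -0.06 ± 0.20. The higher genes Fstl1, Acvrl1, Rgma, Dlx3, Hjv, Smurf1, Atoh8 and Pcsk5 fall below 0 on the spike-in scale. The bounds for Gdf6 and Chrdl2, which rest on dim spots, no longer lie above 0 there either.

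**Figure D3:**
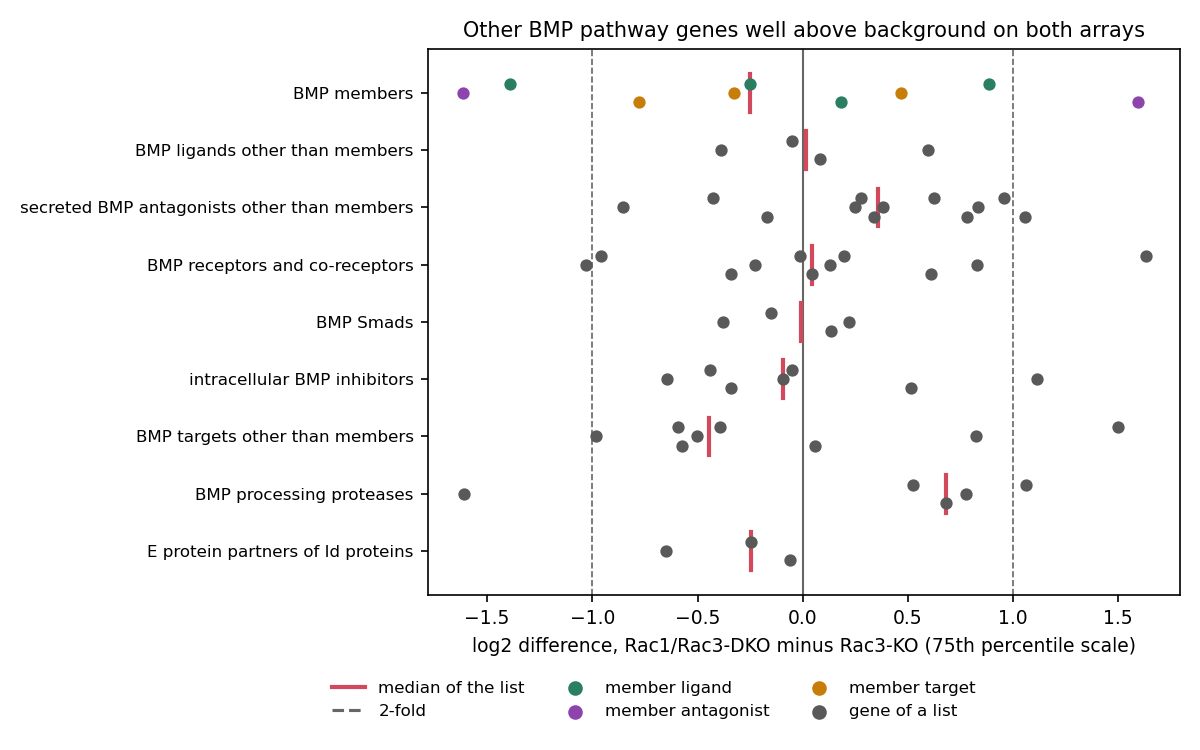
Log2 difference, DKO-labelled minus Rac3-KO on the 75th percentile scale, of the 9 measured members (top, coloured by role) and of 54 other BMP pathway genes by list (grey); red bars are list medians, dashed lines 2-fold. Most lists straddle 0, and the members span -1.62 to 1.60; the spike-in scale moves all points down by 2.06.

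Markers of the cell types that make these ligands and antagonists also differed between the arrays, so the members are set beside them. All 9 basal keratinocyte markers lay below 0, 7 of them by at least 2-fold (median -1.66). Their summed signals before scaling were 455111 and 82821 on the control and DKO-labelled arrays. The brighter probe of Trp63 gave -1.80 ± 0.20, but its other probe, also well above background on both arrays, gave 0.43 ± 0.20. Of suprabasal markers, 6 of 6 measured were at least 2-fold lower (median -1.87; summed signals 196329 and 7563), Krt1 the lowest at -4.95 ± 0.20. Of hair follicle markers, whose cells make Sostdc1 and Bmp2, 6 of 7 measured were at least 2-fold lower (median -1.87; summed signals 80434 and 12513). The differences of Bmp2 and Sostdc1 lay inside the range of these lists.

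Markers of mesenchymal and other cells, by contrast, were mostly higher. Of fibroblast markers 8 of 9 lay above 0 and 2 were at least 2-fold higher (median 0.79; summed signals 1073149 and 941406). Skeletal muscle markers were higher in 7 of 8 cases by at least 2-fold (median 2.51; summed signals 271505 and 779335), Actn3 the highest at 3.14 ± 0.20. Leukocyte markers had a median of 1.08 (3 of 6 at least 2-fold higher; summed signals 24990 and 30667), endothelial markers 0.61 (2 of 6; summed signals 11697 and 11669), and adipocyte markers 0.72 (0 of 6; summed signals 136618 and 103933). Smooth muscle markers had a median of 0.51 (summed signals 21619 and 19287) and erythroid markers 0.72 (summed signals 731337 and 642564), with 0 genes 2-fold apart. Melanocyte markers were lower (median -1.30, 3 of 5 at least 2-fold) and Schwann cell markers differed by a median of -0.39. Bmp2 at -1.39 lay inside the range of the melanocyte list as well (-1.50 to -0.40), and Sostdc1 lay below that range. No marker list had a defining gene at 0 on either array. Bmp6 at 0.89 and Nog at 0.96 lay inside the range of the fibroblast list, and Grem1 at 1.60 lay above its highest gene, Fbn1 at 1.23. Grem1 lay inside the ranges of the leukocyte list (0.38 to 2.19) and the skeletal muscle list (-0.02 to 3.14). Bmp4 at 0.18 lay inside the fibroblast range only through Twist2 at -0.29, as the other 8 fibroblast markers lay at 0.21 or higher. Bmp6 also lay inside the range of the endothelial list (0.41 to 1.17), but above the highest suprabasal marker, at -1.23. Bmp7 at -0.25 lay above the highest basal marker, at -0.89, and above all measured suprabasal markers. It was inside the range of the fibroblast list only through Twist2, and below all other fibroblast markers. Not every member thus lay beside the markers of each cell type named for it.

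Both arrays thus gave signal for several cell types, unequally, and the part that this has in the differences of Bmp2, Sostdc1, Bmp5, Grem1 and the Id genes was not tested. In bulk RNA, fewer cells of a type and less of a transcript per cell cannot be told apart.

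**Figure D4:**
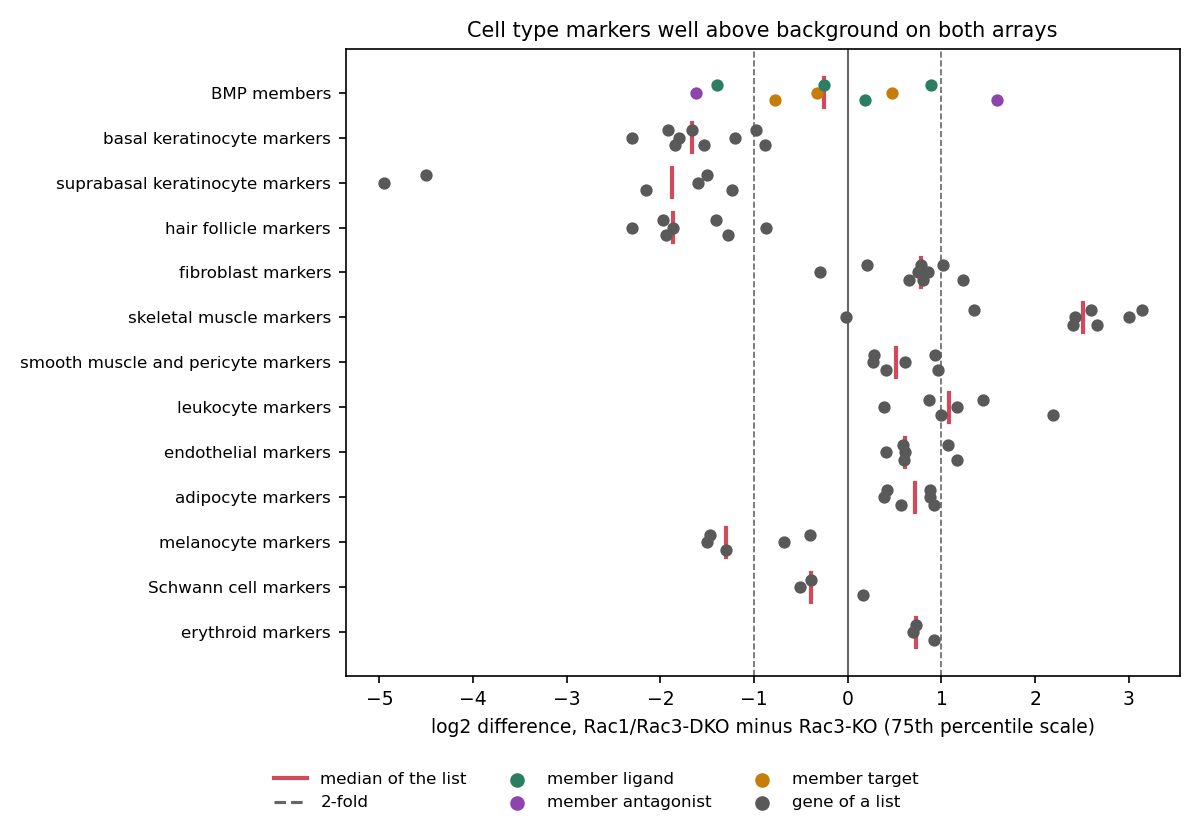
Log2 difference, DKO-labelled minus Rac3-KO on the 75th percentile scale, of the 9 measured members (top) and of cell type markers well above background on both arrays, by list (grey); red bars are medians, dashed lines 2-fold. Keratinocyte and hair follicle lists have medians between -1.87 and -1.66, next to Bmp2 and Sostdc1, and the melanocyte list has a median of -1.30, next to Bmp2. Fibroblast and skeletal muscle lists have medians of 0.79 and 2.51. The spike-in scale moves all points down by 2.06.

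The members' differences were compared across processing choices gene by gene. For Bmp2, Bmp4, Bmp6, Id1 and Id3 the values other than on the spike-in scale stayed within the signal error of the reported ones. Bmp5, Bmp7, Sostdc1, Grem1 and Id2 moved by more than that error with normexp correction, Bmp5 by the most.

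**Figure D5:**
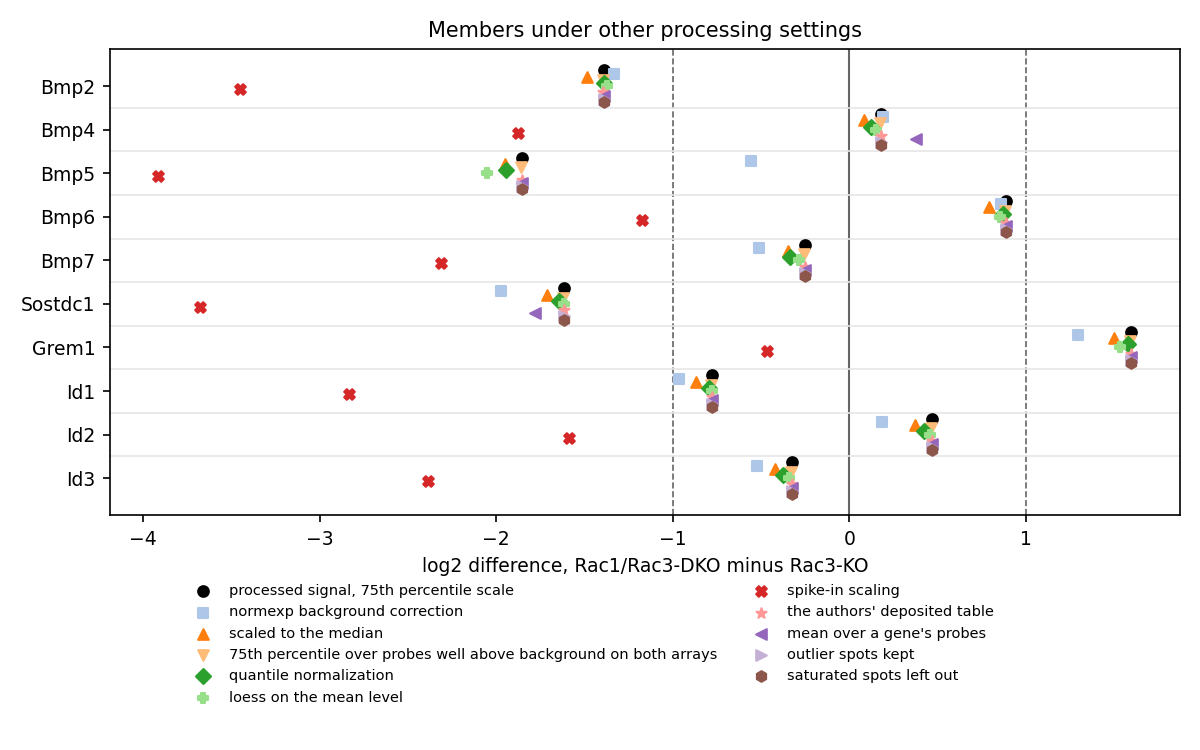
Log2 difference of each member, DKO-labelled minus Rac3-KO, as reported (black) and under 10 other settings; each symbol is a setting and dashed lines mark 2-fold. Most settings fall on the reported value; spike-in scaling shifts all members by -2.06, and normexp correction takes Bmp5 from -1.85 to -0.56.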

How the data were processed

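RNA of 1 Rac3-KO and 1 Rac1/Rac3-DKO sample was hybridised to 1-colour (Cy3) Agilent arrays lying on the same slide. Per the file headers, Feature Extraction 10.10.1.1 subtracted background from and detrended the spot intensity that the deposited scanner files hold. Version 9.1 is named in the submitters' processing notes. The authors' deposited table gives log2 values: processed signals minus a constant per array near the 75th percentile, within 0.001 for 100% of probes spotted once.

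Log2 processed signals were averaged over a probe's spots, leaving out control and outlier spots (155 and 190), and the 75th percentile over 55678 probes was subtracted. Accessions were matched without version to RefSeq transcripts of GRCm38.p6, naming 26580 probes; since the array was designed on an older build, that table served for names only. The brightest probe on average stood for a gene, which counted as measured if both arrays had this probe well above background. A gene seen on 1 array received an at-least fold: its level there against its own dim level or, if higher, the detection limit of the dim array. Counts used 2-fold; with 1 array per genotype there was no test. Repeated spots had a median SD of 0.09 in log2 difference. The counting was tested on simulated data.

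The members and gene lists were chosen with earlier results of these data known. Named pathway genes were those at least 2-fold apart, those whose at-least fold reached 2, and the highest and lowest of each list. Nog, Bmpr1a, Bmpr1b, Bmpr2, Acvr1, Acvrl1, Rgma, Id4, Msx1, Msx2, Dlx3, Trp63, Krt5, Hba-a1, Col1a2, Tnnc2, Fbn1 and Twist2 were added after their values were seen. Alternatives were normexp background correction (limma 3.58.1), on the median spot signal because the mean was not used here, 5 other scalings, the deposited table, the mean over probes, outlier and saturated spots, 2 filters on dim probes, thresholds of 1.5-fold and 3-fold, and a filter on the software's error. Promoter windows came from a RefSeq table of GRCm38.p6.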

Additional observations from a re-analysis of the deposited data

How the results depend on the processing

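No paired analysis was possible because each genotype had 1 array, and no replicate could be left out. Of 15 alternatives, 13 kept the count of members at least 2-fold lower within 1.5 times its value of 2, and 13 did so for the count of 1 higher. Spike-in scaling gave 8 lower and 0 higher members, 50 lower and 0 higher pathway genes, and 13180 lower and 14 higher genes in all. It turned Grem1 to -0.46, Atoh8 to -0.56, Fstl1 to -1.001, Hjv to -0.43, Pcsk5 to -0.999 and Smurf1 to -0.94. A threshold of 1.5-fold gave 2 members higher, 8 pathway genes lower and 15 higher, and 2335 genes lower and 2581 higher; 3-fold gave 1 member lower, 1 pathway gene lower and 1 higher, and 315 genes lower and 324 higher. For the pathway genes, normexp gave 0 lower and 3 higher, median scaling 4 lower and 3 higher, and loess 4 lower. With no filter on detection 1521 genes were lower and 2122 higher, over 20144 genes in place of 14145. Higher genes made up 53.8% of those 2-fold apart, and 43.6% with median scaling. The cause of these shifts was not tested, except that thresholds and filters change what is counted. Signal over background limits Bmp5, the dimmer Bmp4 probe, Gdf6 and Chrdl2, for which only bounds or no values are given.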
